A study of Mus musculus with 12 samples.

Results

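The 37 genes described here carry out or drive the 2 stretches of the cell cycle that copy and then divide the genome. They were taken by name from the 54532 genes counted in the series, not by a rule on their values. Earlier results of these data were known when they were chosen. Of them, 15 act at the G1/S boundary and in S phase and 22 act in G2 and mitosis, and all 37 passed the filter on low counts. RNA was sequenced from L929 cells, an established mouse fibroblast line, 6 hours after transfection, in 12 libraries under 6 labels of 2 libraries each. The labels are G3-YSD transfection, HSV transfection, HT-DNA transfection, cGAMP stimulation, hpRNA transfection and mock, which the labels describe as untreated. cGAMP is the messenger molecule that the DNA sensor cGAS makes. The other short names are left as submitted. For HT-DNA, hpRNA and mock the source name gives only a mouse fibroblast line, while another field names L929. The digit that ends each title was read as a replicate number, though for HSV it could also name a virus type, in which case HSV would hold 2 groups of 1 library. The labels report duplicates and do not say whether these came from separate cultures. The p-values reflect only how far libraries of the same label differed, which need not be variation between cultures. That spread was taken per gene over all 6 labels at once, not over the compared labels alone.

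The libraries did not group by label. Total counts ranged from 12650790 to 18912400. Over all genes, the closest library to each of the 12 carried another label and the same number in 12 of 12 cases, and the same held over the 37 genes alone. For genes with at least 100 counts in a pair, the median squared difference was set against that expected from counting. This ratio was 3.52 to 82.6 within a label and 1.41 to 2.03 to the closest library. The difference within a label is the spread behind the p-values, and its source was not tested. Levels are in CPM (counts over a common library size), scaled by TMM (a trimmed mean of ratios between libraries) unless stated otherwise. Over library totals alone, summed levels of 26 interferon-stimulated genes were 19812 and 531 CPM under G3-YSD and 19802 and 519.6 CPM under HSV. They were 1640 and 6240 CPM under HT-DNA, 1870 and 6578 CPM under cGAMP, 207 and 4256 CPM under hpRNA and 212 and 4720 CPM under mock, the first value of each pair being library 1. The labels are kept here as deposited, and each name below means the library so labelled. They may not match what each library received, and every difference given below by label carries that doubt. Fibroblast markers summed to between 4307 and 6921 CPM in G3-YSD, 4238 and 6940 CPM in HSV and 4831 and 5187 CPM in the other 8 libraries, with 10 of 12 markers reaching 5 CPM and Dcn, a matrix proteoglycan, at 0 in all 12 libraries.

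A cell enters S phase when cyclin D and cyclin E kinases inactivate the retinoblastoma protein and release E2F transcription factors, which switch on genes for origin licensing, the replicative helicase and nucleotide synthesis. Genes for the G2/M transition and for building and splitting the mitotic spindle peak later, under FOXM1, B-MYB and the NF-Y factor, and many are held down earlier in the cycle by repressor complexes at a promoter element called CHR. Levels of both sets in a bulk culture follow how many cells are in each phase and how much RNA each cell holds, and these cannot be told apart here.

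Promoter sequence was read where it was on hand. RefSeq promoters on GRCm38.p6, reaching from 250 bases before to 50 bases after the gene start, were found for 29 of the 37 members, 12 of 15 for G1/S and 17 of 22 for G2/M. Those without an entry were Mcm4, Ccne2, Ccnd1, Ccna2, Aurkb, Kif20a, Tpx2 and Foxm1. A few windows are printed, each 5′ to 3′ on the gene's strand with searched motifs in capitals, to show a G2/M promoter with both motifs, one with repeated NF-Y boxes, one with NF-Y boxes only, and a G1/S promoter with E2F letters. In Plk1 (chr7:122159185-122159484, plus strand), Ube2c (chr2:164769679-164769978, plus strand) and Ccnb1 (chr13:100786437-100786736, minus strand), capitals mark the CHR letters TTTGAA and the NF-Y box CCAAT on either strand. In Mcm6 (chr1:128359656-128359955, minus strand), capitals mark the E2F letters TTTGGCGC, TTTCCCGC or TTTCGCGC and the NF-Y box.
Plk1: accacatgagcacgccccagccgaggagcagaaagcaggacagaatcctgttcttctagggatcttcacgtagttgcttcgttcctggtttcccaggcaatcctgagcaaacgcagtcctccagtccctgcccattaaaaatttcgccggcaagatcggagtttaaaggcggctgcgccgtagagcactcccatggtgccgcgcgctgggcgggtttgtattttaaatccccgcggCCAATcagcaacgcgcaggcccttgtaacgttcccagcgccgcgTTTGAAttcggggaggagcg
Ube2c: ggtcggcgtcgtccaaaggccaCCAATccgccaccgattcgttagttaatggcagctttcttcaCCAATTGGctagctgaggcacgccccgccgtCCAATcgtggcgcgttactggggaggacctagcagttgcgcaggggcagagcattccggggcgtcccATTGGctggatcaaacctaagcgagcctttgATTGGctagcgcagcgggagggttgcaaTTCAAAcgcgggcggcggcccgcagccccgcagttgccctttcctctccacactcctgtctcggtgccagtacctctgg
Ccnb1: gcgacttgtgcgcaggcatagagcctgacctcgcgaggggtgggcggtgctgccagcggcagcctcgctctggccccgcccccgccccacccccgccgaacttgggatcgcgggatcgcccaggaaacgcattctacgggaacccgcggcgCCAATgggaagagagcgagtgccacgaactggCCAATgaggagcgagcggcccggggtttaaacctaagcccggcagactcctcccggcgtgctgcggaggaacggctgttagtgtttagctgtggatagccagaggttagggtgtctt
Mcm6: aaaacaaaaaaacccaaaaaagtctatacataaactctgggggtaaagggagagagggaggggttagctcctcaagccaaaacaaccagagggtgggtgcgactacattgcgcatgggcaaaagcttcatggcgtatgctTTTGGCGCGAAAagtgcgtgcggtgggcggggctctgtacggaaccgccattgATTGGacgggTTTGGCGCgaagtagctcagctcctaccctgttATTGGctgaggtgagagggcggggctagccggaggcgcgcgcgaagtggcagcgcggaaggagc

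Plk1 held 1 CHR match and 1 NF-Y match, Ube2c 1 and 6 (of which 2 overlap), and Ccnb1 0 and 2. The window of Birc5, another G2/M gene, is not printed and held 0 and 0. Mcm6 held 3 E2F matches, of which 2 overlap, and 2 NF-Y matches. E2F letters were in 6 of 12 G1/S promoters and 1 of 17 G2/M promoters (5.88%, the Cdk1 promoter), against 2.12% of the 27025 genes of the RefSeq table. CHR letters were in 12 of 17 G2/M promoters (70.6%) and in 1 of 12 G1/S promoters (8.33%), that of Mcm2, against 20.2% of all genes. NF-Y boxes were in 15 of 17 G2/M promoters (88.2%) and 7 of 12 G1/S promoters (58.3%), against 41.1% of all genes. A match is a description of the letters and not of a bound site.

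In the libraries labelled G3-YSD and HSV, G2/M genes stood below the other labels while G1/S genes went in different directions. All 4 libraries of G3-YSD and HSV lay below all 8 of HT-DNA, cGAMP, hpRNA and mock for 14 of 22 G2/M genes, where 15.3% of the 16840 genes tested did so. For 0 G2/M genes did all 4 lie above all 8, where 12.8% of genes did. Among G1/S genes, 4 of 15 (Mcm3, Mcm4, Mcm5 and Mcm6) lay above in all 4 libraries and 2 of 15 (Ccne1 and Cdt1) below. With library totals alone as the scale, 16 G2/M genes lay below, against 17.8% of all genes, and of the G1/S genes only Mcm3 and Mcm4 lay above, against 11.1%. With upper quartile scaling 12 G2/M genes and Ccne1 lay below, against 10.9% of all genes, and the same 4 Mcm genes above, against 17.4%. These 2 labels were set together with their values known, so the counts are a description with no test. Across the 8 libraries of the other 4 labels the highest library was 1.04 to 1.89 times the lowest, with a median of 1.16. Of the 22 G2/M genes, 20 were lower in library 2 than in library 1 of mock and 19 in hpRNA. In HT-DNA 11 were, and in cGAMP 15. The median log2 ratio of G2/M genes to the mock mean was 0.06 in mock 1 and -0.06 in mock 2, where all genes had 0.0 in both. The 2 mock libraries thus differed in these genes.

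**Figure D1:**
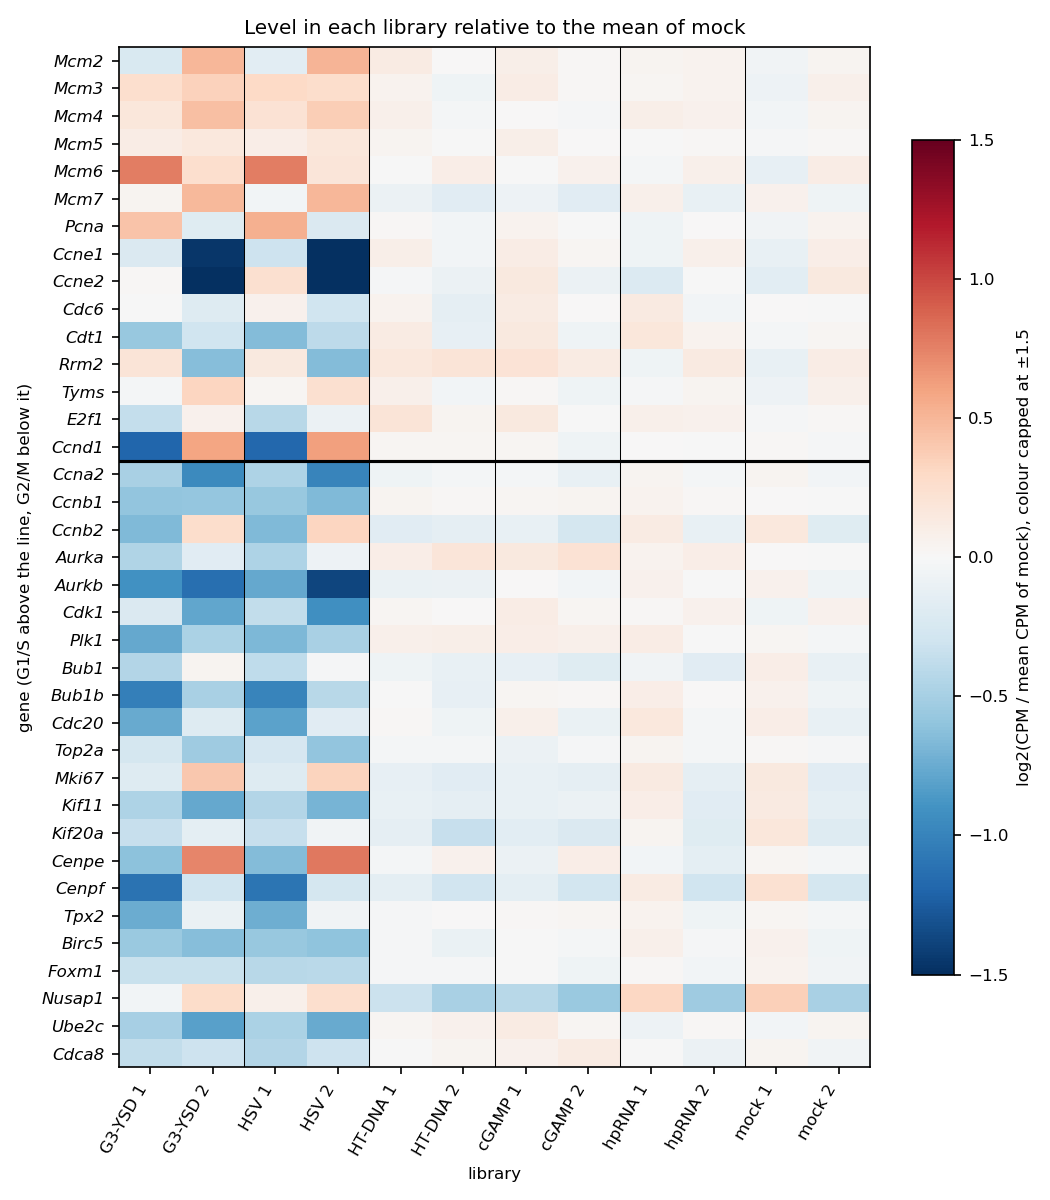
Each cell is the log2 ratio of a gene's CPM in 1 library to its mean in the 2 mock libraries, with 15 G1/S genes above the line and 22 G2/M genes below it. Blue (lower) fills most G2/M rows in the 4 leftmost columns, G3-YSD and HSV, while G1/S rows there hold both colours and often differ between library 1 and library 2.

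Of 22 G2/M genes, 4 fell in G3-YSD against mock, the kinase genes Aurkb and Plk1, the passenger complex gene Birc5 and the cyclin gene Ccnb1. The call needed an adjusted p below 0.05 (Benjamini-Hochberg, over all genes) in edgeR's quasi-likelihood test. Of all genes tested 5.16% were called in this comparison, 1.79% higher and 3.37% lower. In HSV against the same mock libraries 3 of 22 fell, Aurkb, Birc5 and Ccnb1, where 5.2% of all genes were called, 1.73% higher and 3.47% lower. G2/M genes had a median log2 fold change of -0.42 in G3-YSD against mock and -0.43 in HSV against mock, where all genes had medians of 0.11 and 0.10. Both libraries lay below both mock libraries for 16 of 22 G2/M genes in G3-YSD, against 22.7% of all genes, and for 16 of 22 in HSV, against 22.8%. For 0 of the 22 did both lie above, against 24.4% of all genes in G3-YSD and 24.7% in HSV.

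Ccnb1 (chr13:100778650-100786570 on mm10, by the GENCODE annotation, as for the positions that follow), the cyclin B1 partner of Cdk1 that drives entry into mitosis, had 112 and 114 CPM under G3-YSD, 115 and 108 CPM under HSV, 175 and 172 CPM under HT-DNA, 174 and 174 CPM under cGAMP, 176 and 172 CPM under hpRNA and 170.2 and 169 CPM under mock. The 4 values of G3-YSD and HSV lay close together and well under the other 8, which differed by 1.04 times. Ccnb1 averaged 113 ± 0.90 CPM in G3-YSD, 111 ± 5.12 CPM in HSV and 169.8 ± 0.60 CPM in mock (SD, n = 2 each). It fell by 0.59 on the log2 scale in G3-YSD against mock (standard error 0.11, edgeR adjusted p = 0.0261) and fell by 0.61 in HSV against mock (standard error 0.11, edgeR adjusted p = 0.0224). A pseudogene that carries its name, Ccnb1-ps, may share its reads.

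Aurkb (chr11:69045647-69051664) encodes the kinase of the chromosomal passenger complex, which corrects faulty attachments of chromosomes to the spindle. Its levels were 42.3 and 36.1 CPM under G3-YSD, 46.6 and 30.6 CPM under HSV, 74.0 and 74.9 CPM under HT-DNA, 79.7 and 77.0 CPM under cGAMP, 83.1 and 79.1 CPM under hpRNA and 82.9 and 75.6 CPM under mock. The G3-YSD and HSV libraries were about level with each other and far below all the rest, and library 2 was the lower one under both labels. It fell by 1.02 on the log2 scale in G3-YSD (standard error 0.20, edgeR adjusted p = 0.0287) and fell by 1.04 in HSV (standard error 0.20, edgeR adjusted p = 0.0266), both against mock. Birc5 (chr11:117849251-117855743), which encodes survivin of the same complex, had 76.9 and 72.9 CPM under G3-YSD, 76.2 and 74.3 CPM under HSV, 111 and 106 CPM under HT-DNA, 113 and 111 CPM under cGAMP, 119 and 112 CPM under hpRNA and 118 and 108 CPM under mock. Its 4 low libraries were almost equal and did not reach any of the other 8. Birc5 fell by 0.59 on the log2 scale in G3-YSD (standard error 0.12, edgeR adjusted p = 0.0292) and fell by 0.59 in HSV (standard error 0.12, edgeR adjusted p = 0.0289). Another member of the complex, Cdca8 or borealin, had 70.1 and 73.2 CPM under G3-YSD and 67.1 and 73.2 CPM under HSV against 85.7 to 98.7 CPM in the other 8 libraries. Its log2 fold changes of -0.34 in G3-YSD and -0.37 in HSV against mock were called by DESeq2 and not by edgeR.

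Plk1 (chr7:122159439-122169873), the polo-like kinase needed for centrosome maturation and mitotic entry, had 70.0 and 85.6 CPM under G3-YSD, 74.4 and 84.6 CPM under HSV, 125 and 127 CPM under HT-DNA, 127 and 125 CPM under cGAMP, 128 and 118 CPM under hpRNA and 121 and 116 CPM under mock. All 4 libraries of G3-YSD and HSV were low, and here library 1 was the lower one under both labels. Plk1 fell by 0.61 on the log2 scale in G3-YSD against mock (standard error 0.14, edgeR adjusted p = 0.0461). In HSV against mock its log2 fold change of -0.58 missed the threshold (standard error 0.14, edgeR adjusted p = 0.0543). Ube2c (chr2:164769898-164778822), the ubiquitin-conjugating enzyme that works with the anaphase-promoting complex, had 107 and 85.9 CPM under G3-YSD, 109 and 89.6 CPM under HSV, 154 and 158 CPM under HT-DNA, 164 and 154 CPM under cGAMP, 143 and 153 CPM under hpRNA and 147 and 155 CPM under mock. The G3-YSD and HSV libraries were again low without overlap. Against mock the log2 fold change of Ube2c was -0.65 in G3-YSD (edgeR adjusted p = 0.0522) and -0.61 in HSV (edgeR adjusted p = 0.0623), both short of a call by edgeR, though DESeq2 called Ube2c under both labels and Plk1 in HSV as well. Exons of Plk1 and Ube2c overlap a gene on the other strand in the annotation, and the strand setting of the counts is not given in the sources used here.

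**Figure D2:**
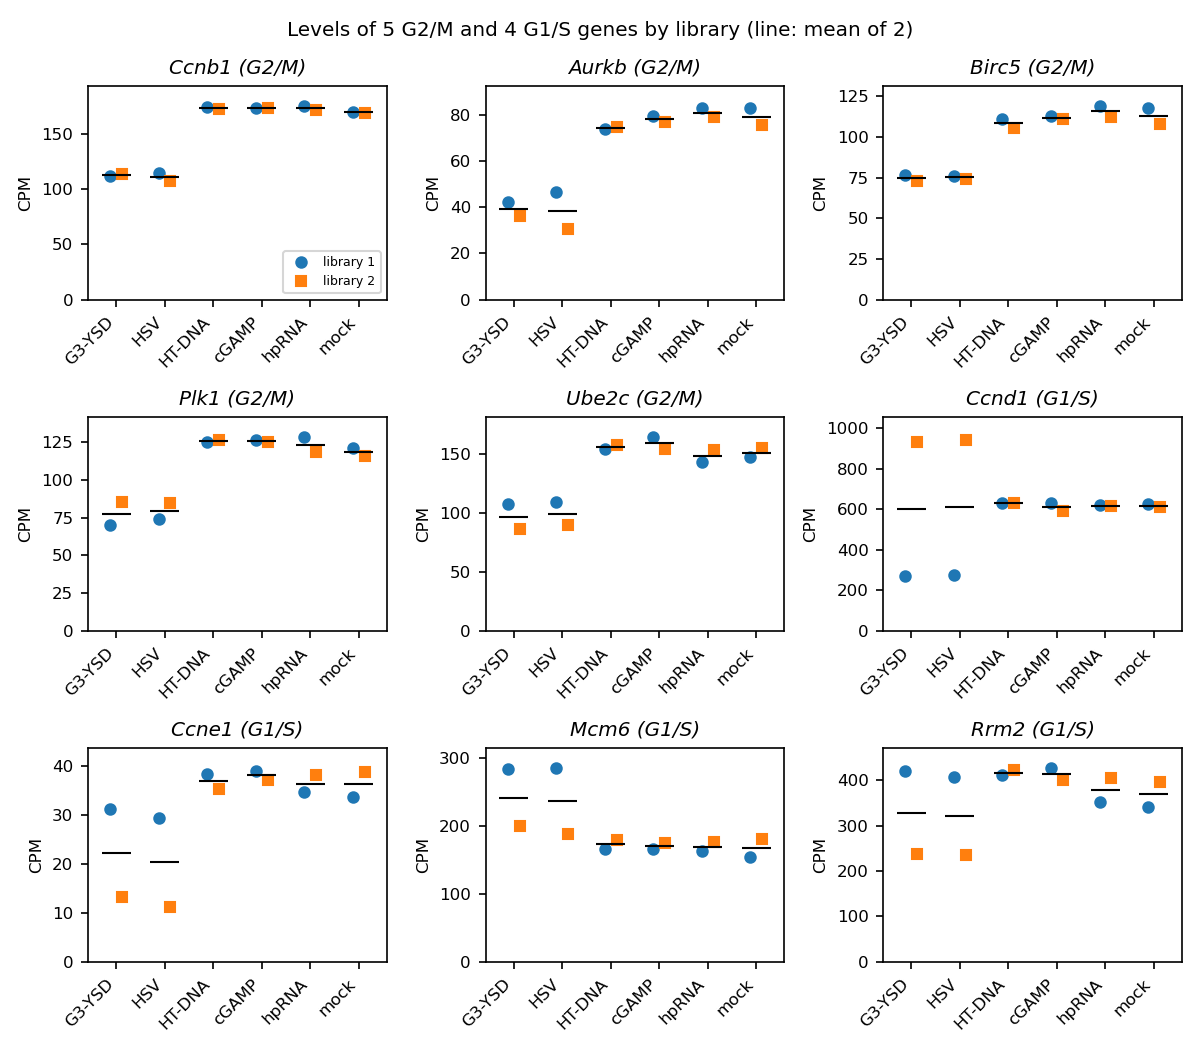
Levels in CPM (y axis from 0) of 5 G2/M and 4 G1/S genes, with circles for library 1, squares for library 2 and a line at the mean of both. For Ccnb1, Aurkb, Birc5, Plk1 and Ube2c the 4 points of G3-YSD and HSV lie under all other points, whereas for Ccnd1 the libraries of each of these labels lie on opposite sides of the rest.

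Most of these calls were lost when 1 library was left out. Each such fit also tested more genes, 17572 to 17972 against 16840, because the filter on low counts shifted. With all 12 libraries and no filter, Aurkb was the only member that edgeR called against mock, under both labels. The part of the filter in the lost calls was not tested. The number of calls over all genes also rose or fell with the library left out, so the member counts below are not particular to the members. With all 12 libraries, 11 of 22 G2/M genes in G3-YSD against mock had an unadjusted p below 0.05, as did 4072 of all 16840 genes. In HSV against mock 12 of 22 did, as did 4092 of all genes. Without G3-YSD 2, or without any 1 of the 8 libraries labelled HT-DNA, cGAMP, hpRNA or mock, edgeR called no member in G3-YSD against mock. Without G3-YSD 1 it called 1, Ube2c, and without HSV 1 or HSV 2 it called 6. In HSV against mock it called no member without HSV 2 or any 1 of those 8 libraries. It still called some without HSV 1, G3-YSD 1 or G3-YSD 2. The log2 fold change of Ccnb1 in G3-YSD against mock was -0.59 without G3-YSD 1 and -0.61 without G3-YSD 2, and that of Aurkb was -1.15 and -0.92. In HSV against mock, Ccnb1 was at -0.67 without HSV 1 and -0.58 without HSV 2, and Aurkb at -1.38 and -0.78.

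Ccna2, Cdk1, Aurka and Foxm1 lay below all other labels in every G3-YSD and HSV library without a call by edgeR, while DESeq2 called Ccna2 and Foxm1 under both labels against mock. Ccna2, cyclin A2, had 121 and 87.8 CPM under G3-YSD and 123 and 85.5 CPM under HSV against 157 to 174 CPM in the other 8 libraries. Cdk1, the kinase of mitotic entry, had 82.5 and 56.0 CPM under G3-YSD and 74.1 and 50.7 CPM under HSV against 91.7 to 103 CPM. For both genes library 2 was the lower one and no library of G3-YSD or HSV reached the other labels. Log2 fold changes against mock were -0.70 in G3-YSD and -0.70 in HSV for Ccna2, and -0.47 in G3-YSD and -0.62 in HSV for Cdk1. Aurka, the spindle pole kinase, had 91.1 and 111 CPM under G3-YSD and 89.8 and 117 CPM under HSV against 124 to 145 CPM. Its activator Tpx2 had 168 and 264 CPM under G3-YSD and 170.3 and 273 CPM under HSV against 269 to 292 CPM, so that HSV 2 overlapped the other labels. Foxm1, the transcription factor of G2/M genes, had the smallest spread of the G2/M set, with 126 and 125 CPM under G3-YSD, 118 and 119.6 CPM under HSV, 157 and 157 CPM under HT-DNA, 158 and 151 CPM under cGAMP, 160.4 and 154 CPM under hpRNA and 165 and 152 CPM under mock. The 4 libraries of G3-YSD and HSV were nearly equal and under the other 8, at log2 fold changes of -0.34 in G3-YSD and -0.41 in HSV against mock.

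Bub1b, Cdc20, Bub1 and Cenpf were lower in library 1 than in library 2 of G3-YSD and of HSV. Bub1b, the BubR1 checkpoint protein, had 64.2 and 93.0 CPM under G3-YSD and 65.9 and 97.9 CPM under HSV against 120.1 to 139.7 CPM in the other 8 libraries, and Cdc20, which activates the anaphase-promoting complex, had 99.6 and 148 CPM under G3-YSD and 96.8 and 150.1 CPM under HSV against 156 to 188 CPM. In both genes library 1 was far under the other labels and library 2 nearer to them, without overlap. Bub1, the kinase that recruits checkpoint proteins to kinetochores, had 74.0 and 104 CPM under G3-YSD and 77.2 and 99.7 CPM under HSV against 88.4 to 108 CPM, with library 2 inside that range. Cenpf, a kinetochore protein, had 80.1 and 139.9 CPM under G3-YSD and 80.6 and 143 CPM under HSV against 140.1 to 201 CPM, with library 2 at the low edge of the range.

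Chromosome and motor genes differed among themselves. Top2a, the topoisomerase that untangles sister chromosomes, had 508 and 424 CPM under G3-YSD and 515 and 407 CPM under HSV against 578 to 631 CPM in the other 8 libraries, and Kif11, the motor that pushes spindle poles apart, had 86.0 and 69.4 CPM under G3-YSD and 87.2 and 73.2 CPM under HSV against 105 to 129 CPM. These were low in every G3-YSD and HSV library and lowest in library 2. Kif20a, a motor of cytokinesis, had 60.5 and 69.5 CPM under G3-YSD, 60.9 and 74.5 CPM under HSV, 70.1 and 60.6 CPM under HT-DNA, 69.3 and 66.7 CPM under cGAMP, 79.7 and 67.9 CPM under hpRNA and 86.9 and 67.5 CPM under mock, and its groups overlapped throughout. Log2 fold changes against mock were -0.39 in G3-YSD and -0.41 in HSV for Top2a, -0.60 in G3-YSD and -0.56 in HSV for Kif11, and -0.25 in G3-YSD and -0.19 in HSV for Kif20a. None of the 3 was called by edgeR, and DESeq2 called Kif11 under both labels.

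In 3 G2/M genes the libraries of G3-YSD and of HSV split to both sides of the other labels. Cenpe, the kinetochore motor that carries chromosomes to the spindle equator, had the widest spread of the G2/M set, with 102 and 259 CPM under G3-YSD, 99.2 and 270.2 CPM under HSV, 153 and 164 CPM under HT-DNA, 147 and 167 CPM under cGAMP, 152 and 141 CPM under hpRNA and 159 and 153 CPM under mock. Library 2 was the highest of all and library 1 the lowest under both labels, and the means over 2 libraries do not describe either. Ccnb2, cyclin B2, had 43.2 and 81.9 CPM under G3-YSD and 43.2 and 85.5 CPM under HSV against 56.9 to 76.5 CPM in the other 8 libraries. Mki67, the Ki-67 protein that coats mitotic chromosomes, had 478 and 718 CPM under G3-YSD and 476 and 687 CPM under HSV against 485 to 603 CPM. Nusap1, which bundles spindle microtubules, split otherwise: it had 46.0 and 57.4 CPM under G3-YSD and 50.03 and 56.4 CPM under HSV, while it had 37.8 and 33.8 CPM under HT-DNA, 35.5 and 32.2 CPM under cGAMP, 58.6 and 32.6 CPM under hpRNA and 60.8 and 33.9 CPM under mock. It was high in library 1 of hpRNA and mock and low in library 2 of both and in all libraries of HT-DNA and cGAMP, and its exons overlap Oip5 on the other strand.

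No G1/S gene was called by edgeR in these comparisons. In G3-YSD against mock edgeR called 0 of 15, and DESeq2 called 1, Mcm3, as higher. In edgeR 4 of the 15 had an unadjusted p below 0.05, as did 4072 of all 16840 genes. In HSV against mock both tools called 0 of 15. In edgeR 2 of the 15 had an unadjusted p below 0.05, as did 4092 of all 16840 genes. The median log2 fold changes were 0.13 in G3-YSD and 0.14 in HSV, close to the 0.11 and 0.10 of all genes. Both libraries lay above both mock libraries for 4 of 15 genes in G3-YSD, against 24.4% of all genes, and below for 2, against 22.7%. In HSV the counts were 4 above, against 24.7%, and 3 below, against 22.8%. Standard errors of the log2 fold changes ran from 0.11 to 0.61, widest for Ccnd1.

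**Figure D3:**
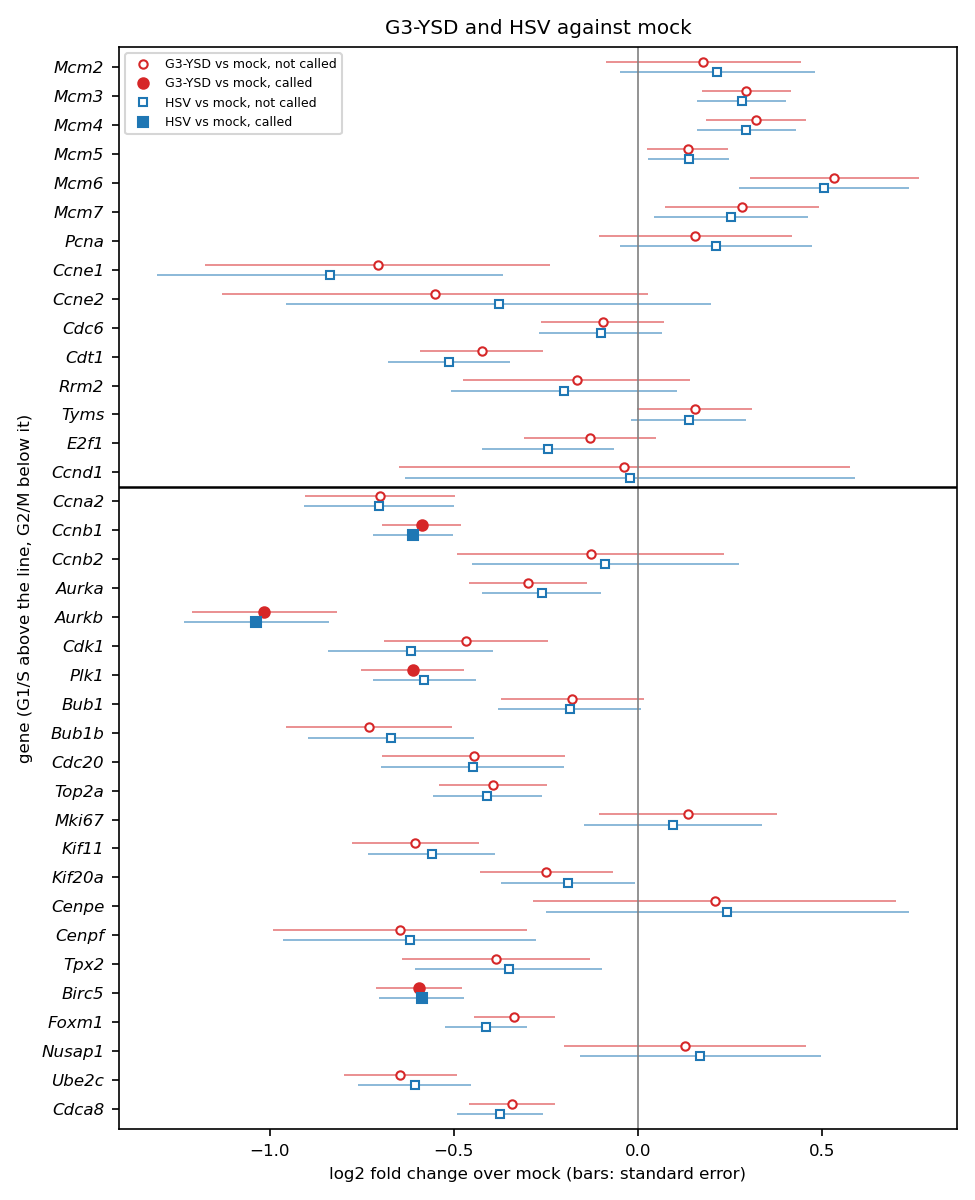
Log2 fold changes of the 37 genes in G3-YSD (circles) and HSV (squares) against the same 2 mock libraries, with bars for standard errors and filled symbols for calls. Most G2/M genes lie left of 0, the filled ones between -1.04 and -0.59, while G1/S genes lie on both sides with no filled symbol.

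The helicase genes included the 4 G1/S genes that stood above the other labels throughout. Mcm2 to Mcm7 encode the subunits of the ring that unwinds DNA at the replication fork. Mcm6 had 283 and 199 CPM under G3-YSD and 285 and 189 CPM under HSV against 153 to 180.1 CPM in the other 8 libraries, with library 1 highest. Mcm3 had 204 and 218 CPM under G3-YSD and 212 and 207 CPM under HSV against 163 to 186 CPM, and Mcm4 had 114 and 139 CPM under G3-YSD and 118 and 130.3 CPM under HSV against 98.5 to 108 CPM, without overlap. Mcm5 had the smallest spread of all members, with 155 and 160.3 CPM under G3-YSD, 154 and 162 CPM under HSV, 148 and 143 CPM under HT-DNA, 153 and 145 CPM under cGAMP, 143 and 146 CPM under hpRNA and 142 and 146 CPM under mock. Its 4 values in G3-YSD and HSV lay above the other 8 by very little. Mcm2 and Mcm7 were high in library 2 instead, Mcm2 with 158 and 260.4 CPM under G3-YSD and 166 and 264 CPM under HSV against 179 to 202 CPM and Mcm7 with 129 and 175 CPM under G3-YSD and 122 and 176 CPM under HSV against 111 to 132 CPM. Log2 fold changes of the 6 against mock ran from 0.13 for Mcm5 to 0.53 for Mcm6 in G3-YSD and from 0.14 to 0.51 for the same genes in HSV, none of them called by edgeR.

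Origin licensing genes were level or low, and nucleotide genes differed by library. Cdt1, which loads the helicase onto origins, had 36.1 and 43.6 CPM under G3-YSD and 34.1 and 40.9 CPM under HSV against 49.1 to 60.3 CPM in the other 8 libraries, low without overlap, and was not called at log2 fold changes of -0.42 in G3-YSD and -0.51 in HSV. Cdc6, which acts with it, had 33.6 and 29.4 CPM under G3-YSD and 35.3 and 27.4 CPM under HSV against 30.6 to 36.9 CPM, with library 2 a little low. Rrm2, the regulated subunit of ribonucleotide reductase, had 421 and 237 CPM under G3-YSD and 408 and 235 CPM under HSV against 341 to 427 CPM, so that library 1 matched the other labels and library 2 was well short of them. Tyms, thymidylate synthase, was among the steadiest with 71.2 and 91.0 CPM under G3-YSD, 74.4 and 86.0 CPM under HSV, 76.7 and 70.8 CPM under HT-DNA, 73.7 and 69.9 CPM under cGAMP, 71.9 and 74.7 CPM under hpRNA and 68.9 and 76.9 CPM under mock. Library 2 of G3-YSD and HSV was above the rest and library 1 was within them. Pcna, the sliding clamp of DNA polymerases, had 336 and 220.1 CPM under G3-YSD and 363 and 215 CPM under HSV against 239 to 259.9 CPM, with library 1 above and library 2 below the other labels.

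The G1 cyclin genes were among the members that differed most between libraries of one label. Ccnd1, cyclin D1, the growth factor-responsive partner of Cdk4 and Cdk6, had 271 and 933 CPM under G3-YSD, 273 and 944 CPM under HSV, 629 and 632 CPM under HT-DNA, 629 and 592 CPM under cGAMP, 622 and 614 CPM under hpRNA and 624 and 611 CPM under mock. The other 8 libraries were nearly equal, library 1 of G3-YSD and HSV was below them and library 2 above them, so the means of 602 ± 469 CPM in G3-YSD, 608 ± 474 CPM in HSV and 618 ± 9.41 CPM in mock (SD, n = 2 each) describe neither library. Ccne1, cyclin E1, the partner of Cdk2 at S phase entry, had 31.2 and 13.1 CPM under G3-YSD, 29.3 and 11.2 CPM under HSV, 38.4 and 35.3 CPM under HT-DNA, 39.1 and 37.2 CPM under cGAMP, 34.7 and 38.1 CPM under hpRNA and 33.7 and 38.9 CPM under mock. It was low in every G3-YSD and HSV library and much lower in library 2, with log2 fold changes of -0.71 in G3-YSD (standard error 0.47) and -0.84 in HSV (standard error 0.47) against mock that were not called. Ccne2, cyclin E2, had 34.2 and 11.8 CPM under G3-YSD and 40.0 and 11.9 CPM under HSV against 29.3 to 37.3 CPM, so that only library 2 was low. E2f1, the activating E2F factor, had 50.4 and 68.0 CPM under G3-YSD and 48.6 and 60.9 CPM under HSV against 63.9 to 74.3 CPM, below all others except in G3-YSD 2.

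Summed over each phase, G2/M genes were lower in G3-YSD and HSV and G1/S genes overlapped. G2/M genes summed to 2708 and 3275 CPM under G3-YSD, 2715 and 3251 CPM under HSV, 3645 and 3604 CPM under HT-DNA, 3667 and 3634 CPM under cGAMP, 3926 and 3569.9 CPM under hpRNA and 3939.7 and 3556 CPM under mock. G1/S genes summed to 2329 and 2799 CPM under G3-YSD, 2362 and 2760.1 CPM under HSV, 2529 and 2465 CPM under HT-DNA, 2556 and 2424 CPM under cGAMP, 2427 and 2487 CPM under hpRNA and 2357 and 2494 CPM under mock. G2/M sums of all 4 G3-YSD and HSV libraries lay below the other 8, and G1/S sums did not separate. The ratio of the G2/M sum to the G1/S sum, which no library scaling changes, was 1.16 and 1.17 in G3-YSD, 1.15 and 1.18 in HSV, 1.44 and 1.46 in HT-DNA, 1.43 and 1.50 in cGAMP, 1.62 and 1.44 in hpRNA and 1.67 and 1.43 in mock. It was lower in all 4 libraries of G3-YSD and HSV than in any other. Its near equality among those 4 rested on Ccnd1: without that gene the ratio was 1.32 and 1.76 under G3-YSD and 1.30 and 1.79 under HSV, against 1.89 to 2.27 in the other 8 libraries. No test is given for these sums, since an exact permutation test of 2 against 2 libraries cannot pass 0.05.

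**Figure D4:**
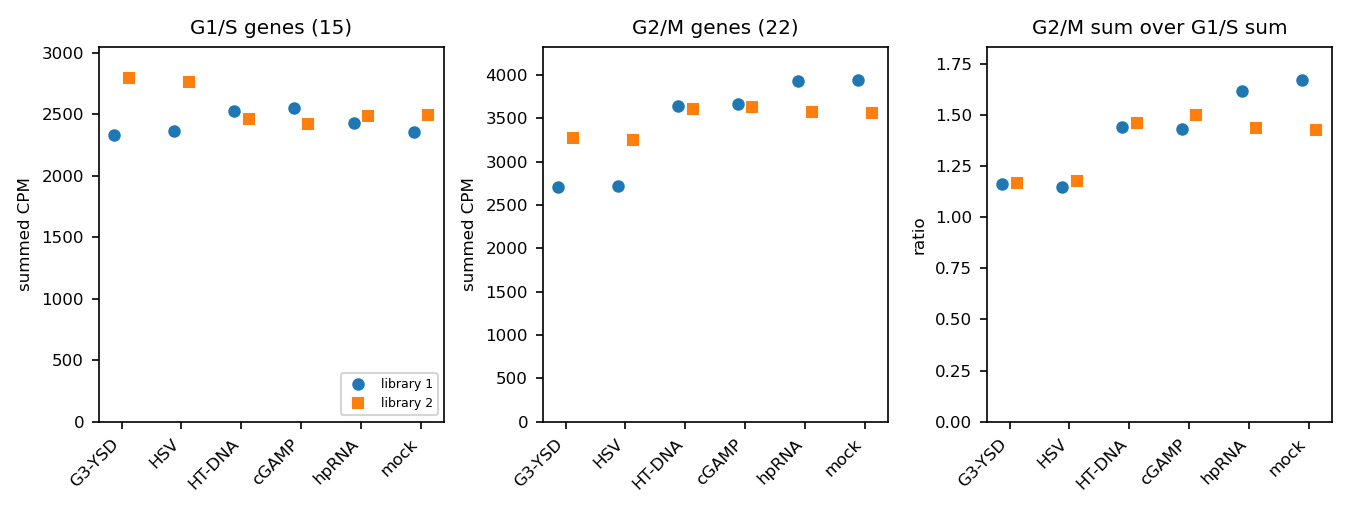
Summed CPM of the 15 G1/S genes and of the 22 G2/M genes, and the ratio of the G2/M sum to the G1/S sum, in each library (circles library 1, squares library 2, axes from 0). The ratio is 1.15 to 1.18 in the 4 libraries of G3-YSD and HSV and 1.43 to 1.67 in the other 8.

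Ccnd1 weighed on the G1/S sum. It made up 11.6% and 33.3% of that sum in G3-YSD, 11.6% and 34.2% in HSV and 24.4% to 26.5% in the other 8 libraries. Without Ccnd1 the other 14 genes summed to 2058 and 1866 CPM under G3-YSD and 2089 and 1816 CPM under HSV, against 1732 to 1927 CPM in the other 8 libraries. Library 1 of G3-YSD and HSV then stood highest of all and library 2 within the range of the rest.

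Between the libraries of one label, members differed most in G3-YSD and HSV. The log2 ratio of library 2 to library 1 ran from -1.54 (Ccne2) to 1.79 (Ccnd1) for G1/S genes and from -0.56 (Cdk1) to 1.35 (Cenpe) for G2/M genes in G3-YSD. In HSV it ran from -1.75 to 1.79 and from -0.60 to 1.45. It exceeded 1 in size for 4 members in each, Ccne1, Ccne2, Ccnd1 and Cenpe, and for 0 members in the other 4 labels. In HT-DNA and cGAMP no member differed by more than 0.25, and in hpRNA and mock only Nusap1 differed by more than 0.5, at -0.84 in each. Over the 37 genes the root mean square log2 difference was 0.11 to 0.68 between libraries of one label and 0.05 to 0.08 between each library and its closest one.

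**Figure D5:**
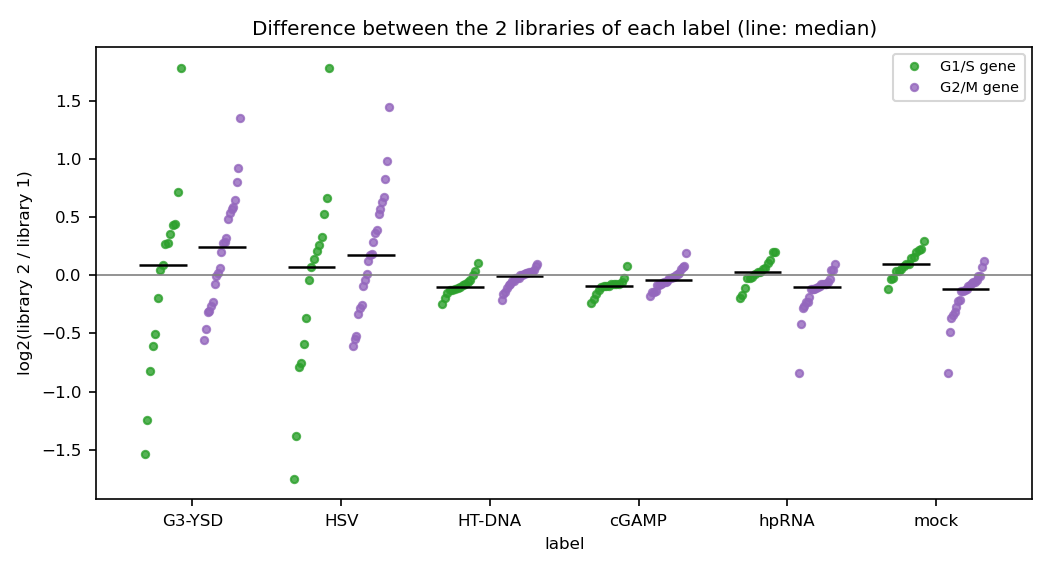
Each point is the log2 ratio of library 2 to library 1 of one label for 1 gene, green for G1/S and purple for G2/M, with lines at the medians. Points span -1.75 to 1.79 in G3-YSD and HSV, and lie within 0.25 of 0 in HT-DNA and cGAMP.

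No replication or mitosis gene was called in HT-DNA, cGAMP or hpRNA against mock. edgeR called 0 of 37 members and 0 of 16840 genes (0.0%) against mock under each label. That fit could hardly call a gene here, since its 1 spread per gene also holds the wide differences within G3-YSD and HSV. In it 62 genes for HT-DNA, 99 for cGAMP and 58 for hpRNA had an unadjusted p below 0.05, none of them a member. Fitted to the 8 libraries of HT-DNA, cGAMP, hpRNA and mock alone, edgeR called 0 of 14543 genes under each label. There 288 genes for HT-DNA, 483 for cGAMP and 238 for hpRNA had an unadjusted p below 0.05. DESeq2 called 1 gene for HT-DNA, 0 for cGAMP and 1 for hpRNA, no member among them. With a replicate block over the 8 libraries of these labels edgeR called 14 genes in HT-DNA, 23 in cGAMP and 0 in hpRNA, again no member. Median log2 fold changes against mock were 0.02 for G1/S and -0.04 for G2/M in HT-DNA, 0.04 for G1/S and -0.02 for G2/M in cGAMP, and 0.02 for G1/S and 0.00 for G2/M in hpRNA. Log2 fold changes of single members ran from -0.40 to 0.17 in HT-DNA, -0.48 to 0.18 in cGAMP and -0.11 to 0.12 in hpRNA, with standard errors of 0.11 to 0.61. Both libraries lay clear of both mock libraries for 9 members in HT-DNA, where 13.8% of genes lay above and 14.0% below, and for 7 in cGAMP, where 14.9% lay above and 15.1% below. In hpRNA they did so for 6 members, where 10.5% of genes lay above and 10.3% below.

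Set against cGAMP, whose source name is worded like theirs, G3-YSD and HSV gave 5 called G2/M genes each. Aurkb, Birc5, Ccnb1, Plk1 and Ube2c fell in both. Of all genes tested 5.0% were called in G3-YSD, 1.85% higher and 3.15% lower, and 5.08% in HSV, 1.78% higher and 3.31% lower. Plk1 fell by 0.70 on the log2 scale in G3-YSD against cGAMP (standard error 0.14, edgeR adjusted p = 0.0312) and fell by 0.67 in HSV against cGAMP (standard error 0.14, edgeR adjusted p = 0.0359). Ube2c fell by 0.72 in G3-YSD (standard error 0.15, edgeR adjusted p = 0.0378) and fell by 0.68 in HSV (standard error 0.15, edgeR adjusted p = 0.0448). Log2 fold changes against cGAMP of the other 3 were -0.62 in G3-YSD and -0.65 in HSV for Ccnb1, -0.998 in G3-YSD and -1.02 in HSV for Aurkb, and -0.58 in G3-YSD and -0.57 in HSV for Birc5. Their edgeR adjusted p lay between 0.0192 and 0.0327. The comparisons with cGAMP and with mock use the same G3-YSD and HSV libraries.

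Of the G1/S genes edgeR called 0 of 15 against cGAMP, and DESeq2 called 0 in G3-YSD and 1, Cdt1, lower in HSV. In edgeR 2 in G3-YSD and 1 in HSV had an unadjusted p below 0.05. Of all 16840 genes, 3915 in G3-YSD and 3864 in HSV did so. Medians were 0.09 for G1/S and -0.44 for G2/M under both labels, where all genes had 0.11. In G3-YSD both libraries lay below both cGAMP libraries for 16 of 22 G2/M genes, against 24.0% of all genes, and above for 1, against 24.9%. In HSV the counts were 15 below, against 24.1%, and 1 above, against 25.1%. In G3-YSD against cGAMP edgeR called no member without G3-YSD 2 or any 1 library of HT-DNA, cGAMP, hpRNA or mock. Without G3-YSD 1 it called Ube2c alone. In HSV against cGAMP, no member was called without HSV 2 or any 1 library of HT-DNA, cGAMP or hpRNA. Ccnb1 alone was called without mock 1 or mock 2, and some members without HSV 1.

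Mitosis genes outside the 37 that were called against mock were all lower. Of 71 further mitosis genes, 7 fell in G3-YSD against mock, where 3.37% of all genes were called lower, and 7 in HSV against mock, where 3.47% were, with medians of -0.30 under both labels. Kif14, a motor of cytokinesis, had 31.4 and 30.2 CPM under G3-YSD and 31.5 and 32.6 CPM under HSV against 57.6 to 64.3 CPM in the other 8 libraries. Its 4 low values were nearly equal, and it fell by 1.01 on the log2 scale in G3-YSD (standard error 0.11, edgeR adjusted p = 0.00806) and fell by 0.95 in HSV (standard error 0.11, edgeR adjusted p = 0.00959) against mock. Espl1, separase, the protease that cuts cohesin at anaphase, had 88.8 and 57.5 CPM under G3-YSD and 89.9 and 68.0 CPM under HSV against 211 to 236 CPM. It fell by 1.67 in G3-YSD (standard error 0.22, edgeR adjusted p = 0.0128) and fell by 1.56 in HSV (standard error 0.22, edgeR adjusted p = 0.0153). Ccnf, cyclin F, fell by 0.69 in G3-YSD (standard error 0.13, edgeR adjusted p = 0.0249) and fell by 0.66 in HSV (standard error 0.13, edgeR adjusted p = 0.026). Tubb4b, a beta tubulin, fell by 1.52 in HSV (edgeR adjusted p = 0.0288). Cdc25b, Cdca2 and Tubb4b were also among the genes called under both labels. The calls of Kif14 were lost without mock 1 or mock 2 (edgeR adjusted p up to 0.0833 in G3-YSD and 0.088 in HSV), as were those of Espl1 (up to 0.0974 in G3-YSD and 0.12 in HSV), in HSV also without HSV 2. Those of Ccnf under both labels were lost without any 1 library of the comparison or of HT-DNA, cGAMP or hpRNA, and that of Tubb4b in HSV likewise except without HSV 1, with log2 fold changes that stayed below 0. Against cGAMP, 7 of the 71 fell in G3-YSD, where 3.15% of all genes were called lower, and 5 in HSV, where 3.31% were. Cenpm, a centromere protein, rose by 0.83 in G3-YSD (edgeR adjusted p = 0.0202) and rose by 0.68 in HSV (edgeR adjusted p = 0.0327). Its call in G3-YSD was lost without any 1 library of G3-YSD, HT-DNA or cGAMP (edgeR adjusted p up to 0.172). CHR letters were in 42 of the 61 promoters found for this list (68.9%), and E2F letters in 17 of 46 promoters of further replication genes (37.0%).

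Of 59 further replication genes 2 were called in each of the 4 comparisons of G3-YSD and HSV, a share below the 5.0% to 5.2% of all genes called there, with medians of -0.02 in G3-YSD and -0.05 in HSV against mock. Timeless, which protects stalled replication forks, had 63.1 and 57.9 CPM under G3-YSD and 65.4 and 60.2 CPM under HSV against 34.3 to 43.1 CPM in the other 8 libraries, high in all 4. It rose by 0.68 on the log2 scale in G3-YSD against mock (standard error 0.15, edgeR adjusted p = 0.0411) and rose by 0.74 in HSV against mock (standard error 0.15, edgeR adjusted p = 0.0318). Chaf1a, a subunit of the assembly factor that lays histones on new DNA, had 52.0 and 48.3 CPM under G3-YSD and 58.2 and 42.2 CPM under HSV against 87.6 to 96.9 CPM, low in all 4. It fell by 0.90 in G3-YSD (standard error 0.16, edgeR adjusted p = 0.0255) and fell by 0.89 in HSV (standard error 0.16, edgeR adjusted p = 0.024). Both genes lost their calls against mock without any 1 library of HT-DNA, cGAMP, hpRNA or mock, in G3-YSD without either of its libraries and in HSV without HSV 2, Timeless there also without HSV 1, with log2 fold changes between 0.60 and 0.82 for Timeless and between -1.16 and -0.69 for Chaf1a.

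Among 42 cell cycle regulators, of which 40 passed the filter, only E2f6 was called by edgeR against mock, where 5.16% of all genes were called in G3-YSD and 5.2% in HSV. E2f6, a repressor of the E2F family, had 12.7 and 14.8 CPM under G3-YSD and 15.4 and 16.3 CPM under HSV against 30.5 to 34.6 CPM in the other 8 libraries. It fell by 1.26 on the log2 scale in G3-YSD (standard error 0.14, edgeR adjusted p = 0.00806) and fell by 1.06 in HSV (standard error 0.14, edgeR adjusted p = 0.0129). Against cGAMP its log2 fold changes were -1.22 in G3-YSD (edgeR adjusted p = 0.0082) and -1.02 in HSV (edgeR adjusted p = 0.0135). Against mock its calls were lost without mock 1 or mock 2, at edgeR adjusted p up to 0.0833 in G3-YSD and 0.0909 in HSV, and in HSV also without HSV 2. Against cGAMP, Ccng1, cyclin G1, rose by 0.59 in G3-YSD (edgeR adjusted p = 0.0353), and E2f4, the factor of the repressor complexes of resting cells, fell by 0.81 in HSV (edgeR adjusted p = 0.0411). Each was lost when any 1 library other than those of HSV for Ccng1, or of G3-YSD for E2f4, was left out.

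Of 8 regulators given whatever their result, most differed between the libraries of G3-YSD and of HSV. Myc, the growth transcription factor, had 221 and 1914 CPM under G3-YSD and 204 and 1892 CPM under HSV against 224 to 283 CPM in the other 8 libraries, with library 2 of both labels far above the rest. Cdkn1a, the kinase inhibitor p21, had 199 and 76.5 CPM under G3-YSD and 194 and 80.3 CPM under HSV against 144 to 191 CPM, with library 1 above and library 2 below the other labels. Ccnd2, cyclin D2, had 206 and 109.8 CPM under G3-YSD and 214 and 111 CPM under HSV against 224 to 276 CPM, and Ccnd3, cyclin D3, had 84.9 and 41.7 CPM under G3-YSD and 86.1 and 41.1 CPM under HSV against 83.1 to 97.6 CPM, opposite to Ccnd1 in library 2. Mybl2, the B-MYB factor, had 94.0 and 61.6 CPM under G3-YSD and 93.1 and 68.1 CPM under HSV against 79.3 to 119 CPM, low only in library 2. Cdkn1b, the inhibitor p27, had 31.4 and 24.6 CPM under G3-YSD and 31.8 and 23.5 CPM under HSV against 31.7 to 44.8 CPM, also lower in library 2. Trp53, the p53 factor, had 242 and 183 CPM under G3-YSD and 236 and 187 CPM under HSV against 135 to 179 CPM, high in all 4. Rb1, the retinoblastoma protein, had 25.3 and 41.7 CPM under G3-YSD and 23.1 and 42.5 CPM under HSV against 24.6 to 37.9 CPM, high only in library 2. None of these 8 was called by edgeR in any comparison.

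Other measures moved with the same libraries. Genes with at least 1 count numbered 26496 and 23997 under G3-YSD and 26241 and 23909 under HSV, against 21635 to 22550 in the other 8 libraries. Mitochondrial genes took 3.64% of counts in G3-YSD 2 and 3.53% in HSV 2, against 2.03% to 2.52% elsewhere. Summed levels of 5 endothelial markers were 11.3 to 16.6 CPM in G3-YSD and 12.3 to 13.9 CPM in HSV, against 2.46 to 3.88 CPM under the other labels, with Kdr and Vwf the 2 that reached 5 CPM and none at 0 in all libraries. Summed levels of 6 epithelial markers were 2.23 to 2.83 CPM in G3-YSD and 2.76 to 4.62 CPM in HSV, against 0.244 to 0.739 CPM elsewhere, none of them reaching 5 CPM. Of these, Krt14 was higher in library 1 and Krt8 in library 2 of G3-YSD and of HSV. Leukocyte markers summed to 74.9 to 106 CPM, mostly Cd68 and Lyz2, and muscle, neural and liver markers to 21.3 to 34.6 CPM, and these sums overlapped between labels. Lyz2 alone had 12.9 and 16.4 CPM under G3-YSD and 13.7 and 17.3 CPM under HSV, against 11.1 to 12.3 CPM elsewhere. Of 6 leukocyte markers tested, 5 lay above both mock libraries and 1 below in G3-YSD, against 24.4% and 22.7% of all genes. In HSV 4 lay above and 2 below, against 24.7% and 22.8%. The part of these measures, and of the interferon-stimulated genes, in the levels of the 37 genes was not tested.

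Levels of the members differed widely between genes. Per kilobase of exon, mean levels in mock ran from 6.44 CPM for Cdc6 to 133 CPM for Rrm2 among G1/S genes, with a median of 28.2 CPM, and from 11.2 CPM for Cenpf to 90.1 CPM for Cdc20 among G2/M genes, with a median of 31.9 CPM. The lowest count of any member in any library was 136, for Ccne1, and counts were higher for every G2/M gene, at 371 or more. Of the 37 members, 12 share exon bases with another gene, 3 on the same strand and 9 on the other strand only, and Pcna, Tyms, Ccnb1 and Ccnb2 have named pseudogenes, so their reads may be shared.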

How the data were processed

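Poly(A) RNA of 12 libraries was sequenced. The deposited files hold whole-number counts per Ensembl gene, which the authors made with HISAT2 and HTSeq on mm10, per the submitters' processing notes. Versions of both tools, the strand setting and the annotation are not stated there. Gene IDs were matched to GENCODE M21 symbols (54495 of 54532). Counts were tested as deposited with edgeR 4.0.16 in R 4.3.3 (filterByExpr, TMM, 1 term per label, quasi-likelihood test), in 1 fit of 16840 genes over 12 libraries with 6 residual degrees of freedom, for 7 comparisons with Benjamini-Hochberg adjustment over all genes. Its common biological coefficient of variation was 0.397. Alternatives were DESeq2 1.42.0, other scalings, no filter, the compared libraries alone, replicate blocks and leaving out each library.

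The members and lists were chosen with earlier results of these data known. Values in every library are given for members called in any comparison and for the 2 of each phase with the widest and the narrowest spread. Of further lists, up to 4 called genes per comparison are named, lowest adjusted p first, plus 8 regulators whatever their result. A further mitosis gene that this rule would name is not reported here. CPM use TMM-scaled library sizes, except the sums of interferon-stimulated genes, which use library totals. Total counts of 12650790 to 18912400 per library set the counting precision. Promoters were searched for exact letters on both strands.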

Additional observations from a re-analysis of the deposited data

How the results depend on the processing

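The log2 fold changes of Aurkb, Birc5, Ccnb1, Plk1 and Ube2c and the medians of G2/M genes stayed below 0 in G3-YSD and HSV, against mock and against cGAMP, under 21 alternatives. The G2/M medians ranged from -0.51 to -0.28 against mock in both labels, while G1/S medians ranged from 0.01 to 0.27 in G3-YSD and from 0.06 to 0.29 in HSV. Against cGAMP, G1/S medians ranged from -0.03 to 0.23 in G3-YSD and from 0.04 to 0.24 in HSV. Upper quartile scaling moved the median of all genes in G3-YSD against mock to 0.24, and split the calls into 364 higher and 314 lower, against 302 and 567 with TMM. In HSV against mock the split was 347 higher and 304 lower, against 291 and 585. Without the filter it was 1160 higher and 734 lower in G3-YSD, and 1150 and 742 in HSV.

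Calls depended on the fit. With the 4 compared libraries alone edgeR called 0 genes and 0 G2/M members in each of the 4 comparisons of G3-YSD and HSV with mock and cGAMP (1766 and 1800 genes at an unadjusted p below 0.05 against mock, 1959 and 1897 against cGAMP), and likewise 0 and 0 with a replicate block. DESeq2 called 2106 genes in G3-YSD and 2138 in HSV against mock, and 2020 in G3-YSD and 1899 in HSV against cGAMP, with 10, 9, 9 and 7 G2/M members. It called 1 G1/S member in G3-YSD against mock (Mcm3) and 1 in HSV against cGAMP (Cdt1), and 1 gene each in HT-DNA and hpRNA. Without the filter edgeR called 1894 and 1892 genes against mock and 1650 and 1633 against cGAMP in G3-YSD and HSV, with 1, 1, 2 and 1 G2/M members. Upper quartile scaling left 1 G2/M member, Aurkb, in each of these 4 comparisons.

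Over all genes tested, deviations of same-numbered libraries correlated above 0.1 in 7 and below -0.1 in 8 of 15 pairs of labels. The labels name no batch that a number would mark. These correlations were 0.37 to 0.65 among HT-DNA, cGAMP, hpRNA and mock, 0.94 between G3-YSD and HSV, and -0.36 to -0.31 between these sets. Over the members alone they were 0.06 to 0.95 among the first 4 labels, 0.99 between G3-YSD and HSV, and -0.45 to 0.18 between the sets. The numbers thus do not pair libraries across all labels. The replicate block over 12 libraries called 6 G2/M members in G3-YSD and 5 in HSV against mock, among 1211 and 1214 called of all 16840 genes. Over the 4 libraries alone it called 6 genes in HT-DNA, 6 in cGAMP and 182 in hpRNA, and over 8 libraries 14 in HT-DNA, 23 in cGAMP and 0 in hpRNA. The crossed replicate block, added after seeing the data, called 0 G2/M members in each comparison of G3-YSD and HSV, with 984 genes in G3-YSD (736 higher, 248 lower) and 999 in HSV (710 higher, 289 lower) against mock, and 121 in G3-YSD and 321 in HSV against cGAMP.

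Leaving out 1 library gave 0 to 1281 called genes in G3-YSD and 0 to 1263 in HSV against mock, and 0 to 1215 and 0 to 1164 against cGAMP. G2/M members numbered 0 to 6 in G3-YSD and 0 to 5 in HSV against either, G1/S members 0, and counts in HT-DNA, cGAMP and hpRNA stayed at 0. Over Aurkb, Birc5, Ccnb1, Plk1 and Ube2c, 4 comparisons and all 21 alternatives, 166 values stayed on the same side of the threshold, 240 lost a call and 14 gained one. The fold changes moved less, those of Birc5 in G3-YSD against mock lying between -0.68 and -0.46. The causes were not tested.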
